A study of Homo sapiens with 12 samples.

Results

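TNFAIP6 (TNF alpha-induced protein 6, also called TSG-6) and the genes that make, bind and break down hyaluronan were examined in HK-2 cells exposed to 3 nephrotoxic drugs. The genes were taken by name from the count table: TNFAIP6, the synthases HAS1, HAS2 and HAS3, the receptor CD44, the hyaluronidases HYAL1, HYAL2 and HYAL3, and the pentraxin PTX3, which are 9 of 58735 genes. HK-2 is an established line of immortalized human proximal tubular epithelial cells. The control group received water as its treatment (label H2O), and the other groups were exposed for 48 h to iohexol, an iodinated contrast medium (75 mg I/mL), to cisplatin, a platinum antitumor compound (5 μM), or to vancomycin, a glycopeptide antibiotic (4 mM), with 3 samples in each group. All groups were the same line grown in DMEM/F12 with serum and antibiotics, so the data describe 1 cell line and not kidney tissue. The labels do not say whether the samples of a group were separate cultures, and the p-values measure only the spread between these samples.

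Hyaluronan is a long unsulfated polysaccharide of the extracellular matrix. The HAS enzymes extrude it through the plasma membrane from UDP-glucuronic acid and UDP-N-acetylglucosamine, and hyaluronidases and lysosomal exoglycosidases degrade it. TNFAIP6 is secreted by many cell types under inflammatory cytokines and moves heavy chains of inter-alpha-inhibitor onto hyaluronan. PTX3 acts as a cross-linking partner in the resulting matrix. CD44 is the main cell surface receptor for hyaluronan, and in the healthy kidney hyaluronan is found mostly in the inner medulla.

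TNFAIP6 lies at chr2:151357592-151380048 on the plus strand (GRCh38), and its exons overlapped those of no other annotated gene. The sequence before the start site is shown for TNFAIP6 and HAS3, the members whose level fell with all 3 drugs (HAS3 with cisplatin not when counts were scaled by library size only), and for PTX3, a cytokine-inducible partner of TNFAIP6 that did not fall. The sequences are the 250 bases before the start site in RefSeq (GRCh38.p14), at chr2:151357342-151357591 for TNFAIP6, chr16:69107290-69107539 for HAS3 and chr3:157436600-157436849 for PTX3, each on the plus strand. The HAS3 stretch lies inside the span that the count table gives the gene. Capitals mark a match to AP-1 (TGANTCA) in TNFAIP6, to an E-box (CACGTG) in HAS3 and to the NF-kB motif in PTX3.
TNFAIP6: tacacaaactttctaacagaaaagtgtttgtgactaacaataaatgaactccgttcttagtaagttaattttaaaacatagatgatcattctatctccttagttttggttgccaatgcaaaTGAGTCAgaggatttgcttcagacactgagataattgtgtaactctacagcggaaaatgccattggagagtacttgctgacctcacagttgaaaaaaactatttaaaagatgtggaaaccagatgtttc
HAS3: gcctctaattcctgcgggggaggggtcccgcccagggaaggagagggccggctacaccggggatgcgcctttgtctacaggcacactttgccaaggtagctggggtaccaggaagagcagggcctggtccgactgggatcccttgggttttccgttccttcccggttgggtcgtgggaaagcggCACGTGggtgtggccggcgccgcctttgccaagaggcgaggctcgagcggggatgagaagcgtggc
PTX3: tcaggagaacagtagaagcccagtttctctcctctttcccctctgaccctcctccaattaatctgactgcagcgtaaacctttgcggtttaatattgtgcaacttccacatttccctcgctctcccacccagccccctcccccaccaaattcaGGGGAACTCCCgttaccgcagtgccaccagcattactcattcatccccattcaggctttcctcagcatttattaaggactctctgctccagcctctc

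These motifs and TATAAA were searched on both strands of the 300 bases around the start site (250 before and 50 after) of the 8 members found in the RefSeq table. The AP-1 match of TNFAIP6 was at bases -129 to -123 from the start, the E-box of HAS3 at -66 to -61, and PTX3 had overlapping NF-kB matches on the 2 strands between -97 and -87. Of the 2 promoters listed for HYAL3 only 1 had an NF-kB match at -51 to -42, and no other window of a member held any of the motifs. Among 35116 promoters of the same length, 7.71% held the AP-1 motif, 7.26% the E-box, 5.91% the NF-kB motif and 11.5% TATAAA. The TNFAIP6 promoter was poor in G and C, at 37.0% of bases against a median of 58.7%, and 6.54% of promoters were lower. A match describes letters and was not tested as a binding site.

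The authors deposited whole-number counts of reads per gene, with 14057282 to 18177109 counts per sample. Levels are given as CPM, counts scaled to the usual fixed total after TMM adjustment, and 3 counts, the floor for detection, stand for 0.178 to 0.219 CPM (counting error only). Replicates differed by more than sampling noise (chi-square per degree of freedom 2.34 to 17.5), and iohexol replicate 3 was the farthest from its group, at 16.5 and 17.5 against the other iohexol samples. Of 10 proximal tubule markers 4 reached a mean of 1 CPM in the control group, PAX8 (374.7), GGT1 (191.1), ANPEP (1.46) and SLC5A2 (1.44). LRP2, CUBN, AQP1, SLC34A1 and HNF4A were among those that did not. The summed level of this list lay between 493.0 and 623.3 CPM in the control samples and between 639.6 and 854.5 under iohexol. It lay between 294.8 and 318.1 under cisplatin and between 724.2 and 819.2 under vancomycin. In the control group 6 of 7 markers of cultured epithelium reached 1 CPM, CDH1 being the exception. Of 5 leukocyte markers PTPRC, CD68, CD3E and MS4A1 were under a mean of 1 CPM in every group, while CD14 was under it in the control group only, and the summed level of the list lay between 0.825 and 1.10 CPM in the control samples, between 1.66 and 2.05 under iohexol, between 1.10 and 1.72 under cisplatin and between 2.04 and 3.70 under vancomycin. Of 4 endothelial markers VWF, CDH5 and KDR were under 1 CPM in every group and PECAM1 only in the vancomycin group, and their sum lay between 1.46 and 1.66 CPM in the control samples, between 3.82 and 4.21 under iohexol, between 1.92 and 1.96 under cisplatin and at most at 0.752 under vancomycin. The summed level of 6 fibroblast markers, of which COL1A2, COL3A1 and PDGFRA were under 1 CPM, ranged from 103.7 to 129.0 CPM in the control, iohexol and cisplatin samples and from 240.5 to 275.4 CPM with vancomycin. The part of these marker levels in the results was not tested.

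Every drug group was set against the controls by edgeR's quasi-likelihood test, and a gene was called at a Benjamini-Hochberg adjusted p under 0.05 over all genes tested. With iohexol 4 of the 8 members tested were called, 1 up-regulated (HAS2) and 3 down-regulated (TNFAIP6, HAS3, CD44), where 21.0% of all genes tested were called (11.2% higher, 9.77% lower). With cisplatin 7 of 8 were called (3 up, 4 down), where 59.8% of all genes were called (29.2% higher, 30.6% lower), and with vancomycin 4 of 7 (2 up, 2 down), where 57.9% were called (29.0% higher, 28.8% lower). With cisplatin and vancomycin most genes of the table were called, and the members' counts have to be read against that. Scaled by library size only, higher genes made up 67.5% of the calls with iohexol and 68.1% with cisplatin, against 53.4% and 48.9% with TMM. HAS1 had too few counts to be tested in any of these fits, and HYAL1 too few in the vancomycin fit. The median log2 fold change of the members tested was 0.16 with iohexol, 0.09 with cisplatin and -0.03 with vancomycin, against 0.01, 0.01 and -0.01 over all genes tested. The 3 comparisons share the same control samples, as do all values set side by side here.

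**Figure D1:**
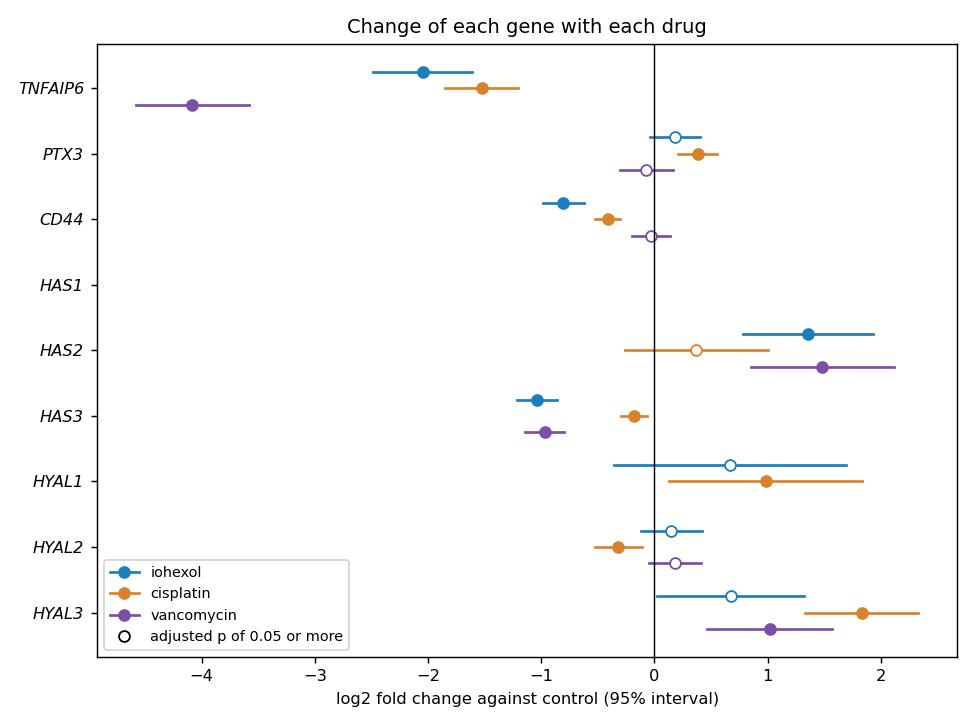
Log2 fold change of each gene against control (x axis) for iohexol, cisplatin and vancomycin, with 95% intervals from edgeR; filled points had an adjusted p under 0.05 and open points did not. TNFAIP6 lies left of 0 with every drug, at -2.05, -1.53 and -4.08, while HAS1 (all drugs) and HYAL1 with vancomycin have no point because they were not tested. The cisplatin point of HAS3, -0.18, moves to 0.04 when counts are scaled by library size only.

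TNFAIP6 was the member with the largest decrease. Its counts were 184, 212 and 159 in the control samples, 47, 53 and 33 with iohexol, 73, 71 and 69 with cisplatin, and 15, 11 and 9 with vancomycin. As CPM these were 13.4, 13.5 and 10.5 in the control group, 3.24, 3.38 and 2.18 with iohexol, 4.37, 4.35 and 4.10 with cisplatin, and 0.940, 0.741 and 0.556 with vancomycin. The groups followed the order control, cisplatin, iohexol, vancomycin, and no 2 neighbouring groups overlapped. The mean CPM was 12.5 ± 1.68 (SD, n = 3) in the control group, 4.28 ± 0.151 with cisplatin, 2.93 ± 0.656 with iohexol and 0.746 ± 0.192 with vancomycin, so that 34.3%, 23.5% and 5.98% of the control level remained.

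By edgeR, TNFAIP6 fell by 2.05 on the log2 scale with iohexol (SE 0.20, 95% interval -2.48 to -1.61, adjusted p = 2.68e-05). It fell by 1.53 with cisplatin (SE 0.15, -1.85 to -1.21, adjusted p = 1.47e-07) and fell by 4.08 with vancomycin (SE 0.24, -4.58 to -3.58, adjusted p = 8.23e-13), a 16.9-fold difference. The call held under every alternative run for these 3 comparisons, and without iohexol replicate 3 the iohexol value was -1.87 (adjusted p = 2.23e-07; range over the alternatives 5.51e-22 to 0.000222). The study picked TNFAIP6 as a hub gene from these same libraries, so its direction here is no independent evidence.

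The difference between drugs was tested by contrasts in 1 edgeR fit of all 12 samples. TNFAIP6 was 3.93-fold higher with iohexol than with vancomycin (log2 difference 1.97, SE 0.27, adjusted p = 3.61e-06) and 5.71-fold higher with cisplatin than with vancomycin (2.51, SE 0.26, adjusted p = 4.25e-08). Between iohexol and cisplatin the log2 difference was -0.54 (SE 0.21, -0.97 to -0.11, adjusted p = 0.0333). That call was lost without iohexol replicate 3 (-0.36, adjusted p = 0.17), without cisplatin replicate 1, 2 or 3 (adjusted p = 0.0782, 0.0748 and 0.0517), and in a fit of only the 6 samples (adjusted p = 0.051), with adjusted p from 0.00978 to 0.17 over all alternatives. The doses of the drugs are in different units and were not matched.

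PTX3, a secreted long pentraxin of innate immunity, did not follow TNFAIP6. Its CPM were 35.3, 38.4 and 33.6 in the control samples, 40.3, 39.1 and 39.0 with iohexol, 47.6, 44.4 and 46.2 with cisplatin, and 36.6, 37.5 and 30.1 with vancomycin. The cisplatin samples were above all others, the iohexol samples lay above the controls without overlap, and the vancomycin samples overlapped the controls. PTX3 rose 1.30-fold with cisplatin (log2 fold change 0.38, SE 0.08, adjusted p = 0.000687 by edgeR). With iohexol the log2 fold change was 0.18 (interval -0.04 to 0.40, adjusted p = 0.234) and with vancomycin -0.07 (-0.31 to 0.16, adjusted p = 0.594), and neither passed the test. Cisplatin exceeded vancomycin by 0.41 (adjusted p = 0.000991). VEPH1, a gene on the opposite strand that shares 3.66% of the PTX3 exon bases, had 517 counts over all samples against 7306 for PTX3. The library kit does not mark strand, so reads from the shared bases cannot be told apart. VEPH1 rose by 1.32 with iohexol (adjusted p = 0.00178 by edgeR) and changed by -1.33 with cisplatin (adjusted p = 0.00177). With vancomycin its value of 0.34 did not pass (adjusted p = 0.31).

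**Figure D2:**
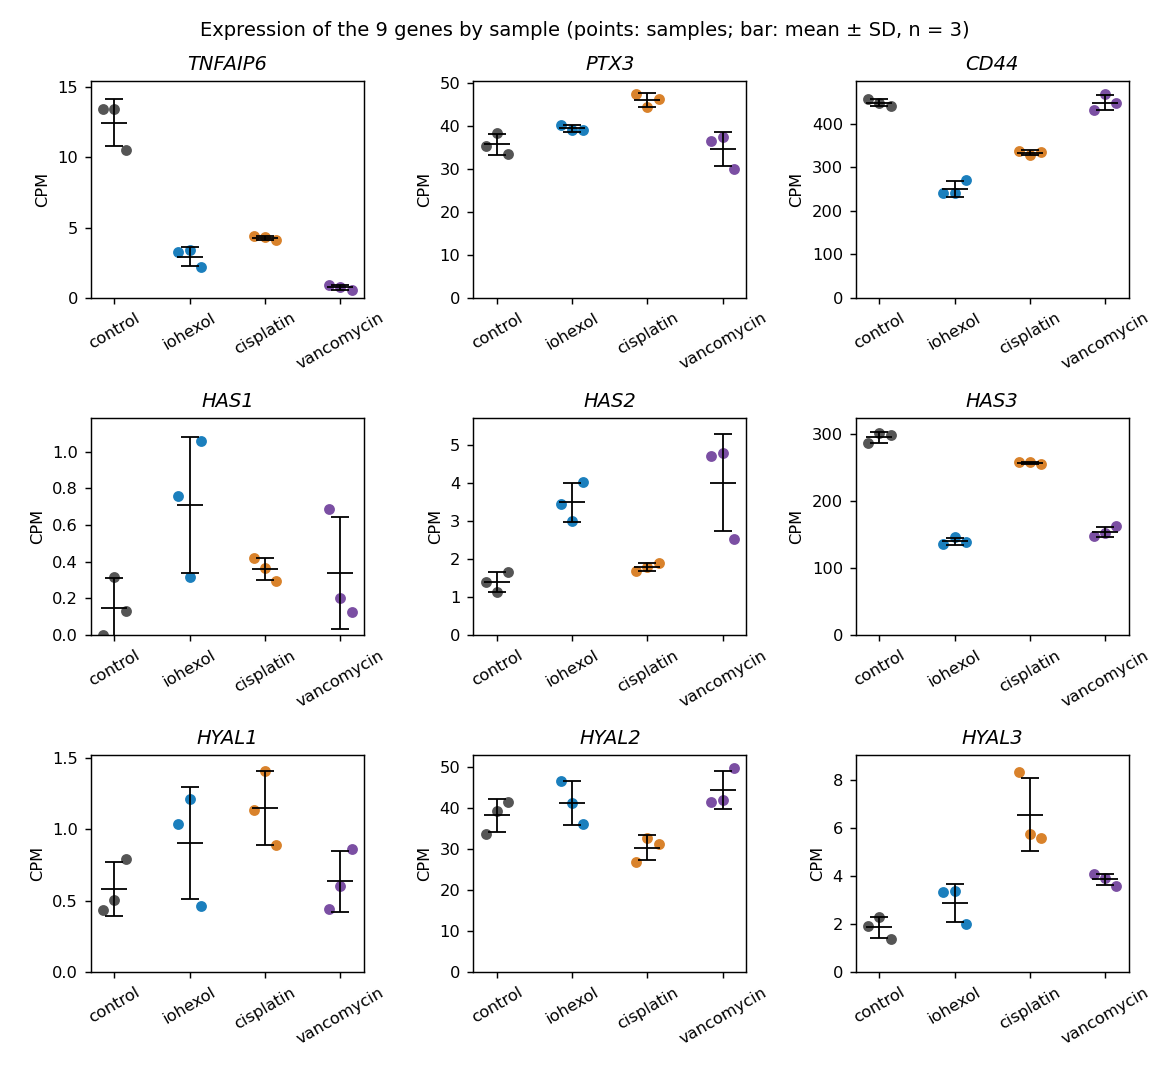
CPM (y axis, starting at 0) of the 9 genes in each of the 12 samples; points are samples and bars the mean ± SD of 3 samples, on a scale of its own for each gene. The 3 vancomycin points of TNFAIP6 sit between 0.556 and 0.940 CPM, below the iohexol points from 2.18 to 3.38, and HAS2 and HAS3 run in opposite directions with iohexol and vancomycin.

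Of the synthases, HAS3 carried nearly all of the transcript level and HAS1 and HAS2 were at the low end of detection. The HAS3 gene is at chr16:69105564-69118719 (GRCh38, plus strand). Its CPM were 286, 301 and 298 in the control samples, 135, 146 and 139 with iohexol, 258, 258 and 255 with cisplatin, and 148, 152 and 162 with vancomycin. The groups followed the order control, cisplatin, vancomycin, iohexol without overlap between neighbours. HAS3 fell 2.05-fold with iohexol (log2 fold change -1.04, SE 0.08, adjusted p = 3.8e-06 by edgeR) and 1.96-fold with vancomycin (-0.97, SE 0.08, adjusted p = 8.05e-10), and these 2 drugs did not differ past the threshold (iohexol minus vancomycin -0.13, interval -0.27 to 0.02, adjusted p = 0.135).

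With cisplatin the HAS3 change was small, -0.18 (SE 0.05, adjusted p = 0.00808 by edgeR), and its direction depended on the scaling. With library size alone in place of TMM the median of all genes moved up by 0.22 in this comparison and HAS3 stood at 0.04 (adjusted p = 0.583), and without cisplatin replicate 3 the value was -0.17 (adjusted p = 0.0529). Over all alternatives its adjusted p ran from 7.95e-05 to 0.583. Iohexol was below cisplatin by 0.87 (adjusted p = 2.72e-09), and cisplatin was above vancomycin by 0.75 (adjusted p = 1.38e-08). HAS3 shares 365 exon bases (6.90%) with CHTF8 on the opposite strand, a gene with 16377 counts in all against 39539 for HAS3. CHTF8 changed by -0.17 with iohexol (adjusted p = 0.516) and rose by 0.26 with cisplatin (adjusted p = 0.0214) and by 0.30 with vancomycin (adjusted p = 0.0183).

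HAS2, an enzyme that makes hyaluronan of high molecular mass, had counts of 19, 18 and 25 in the control samples, 50, 47 and 61 with iohexol, 28, 29 and 32 with cisplatin, and 75, 71 and 41 with vancomycin. Its mean CPM was 1.40 ± 0.257 (SD, n = 3), 3.49 ± 0.519, 1.79 ± 0.112 and 4.01 ± 1.28 in these groups. Every sample of each drug group was above every control sample, vancomycin replicate 3 was the lowest of its group at 2.53 CPM, and the vancomycin and iohexol samples overlapped. HAS2 rose 2.56-fold with iohexol (log2 fold change 1.36, SE 0.26, adjusted p = 0.0036 by edgeR) and 2.80-fold with vancomycin (1.48, SE 0.31, adjusted p = 0.000216). The cisplatin value of 0.37 did not pass (interval -0.26 to 1.00, adjusted p = 0.298). Iohexol exceeded cisplatin by 0.97 (adjusted p = 0.00506) and vancomycin exceeded cisplatin by 1.15 (adjusted p = 0.000845), whereas iohexol and vancomycin differed by -0.19 (interval -0.71 to 0.34, adjusted p = 0.548). HAS2 lies on chromosome 8 and shares 4.80% of its exon bases with HAS2-AS1 on the opposite strand, which had 107 counts over all samples against 496 for HAS2. The HAS2-AS1 counts summed to 15 in the control group, 41 with iohexol, 26 with cisplatin and 25 with vancomycin. HAS2-AS1 did not pass the filter in the comparisons with control, and its part in the HAS2 values was not tested.

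HAS1 was near the floor. Its counts were 0, 5 and 2 in the control samples, 11, 5 and 16 with iohexol, 7, 6 and 5 with cisplatin, and 11, 3 and 2 with vancomycin, and every pair of neighbouring groups overlapped. With no filter on low counts the iohexol comparison gave an adjusted p of 0.0346 by edgeR, and on leaving out 1 sample at a time HAS1 passed the filter in 4 of the fits, with adjusted p from 0.0493 to 0.157. No fold is given at these counts.

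Per kilobase of exon, the summed level of the 3 synthases was 56.1 ± 1.55 CPM per kilobase (SD, n = 3) in the control group, 27.6 ± 0.858 with iohexol, 49.2 ± 0.326 with cisplatin and 30.2 ± 1.06 with vancomycin. HAS3 made up 99.3% of this sum in the control group and 98.8% with cisplatin, and 95.8% and 96.3% with iohexol and vancomycin. The HAS2 share was 0.594% ± 0.111 in the control group, 3.02% ± 0.479 with iohexol, 0.867% ± 0.0595 with cisplatin and 3.19% ± 1.09 with vancomycin. The rise of HAS2 was thus small beside the fall of HAS3 on this scale, and the sums of the iohexol and vancomycin samples, at most 28.4 and 31.4, were all below the lowest control value of 54.4. RNA of bulk cultures was measured, in which fewer cells with a transcript and less of it per cell cannot be told apart.

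**Figure D3:**
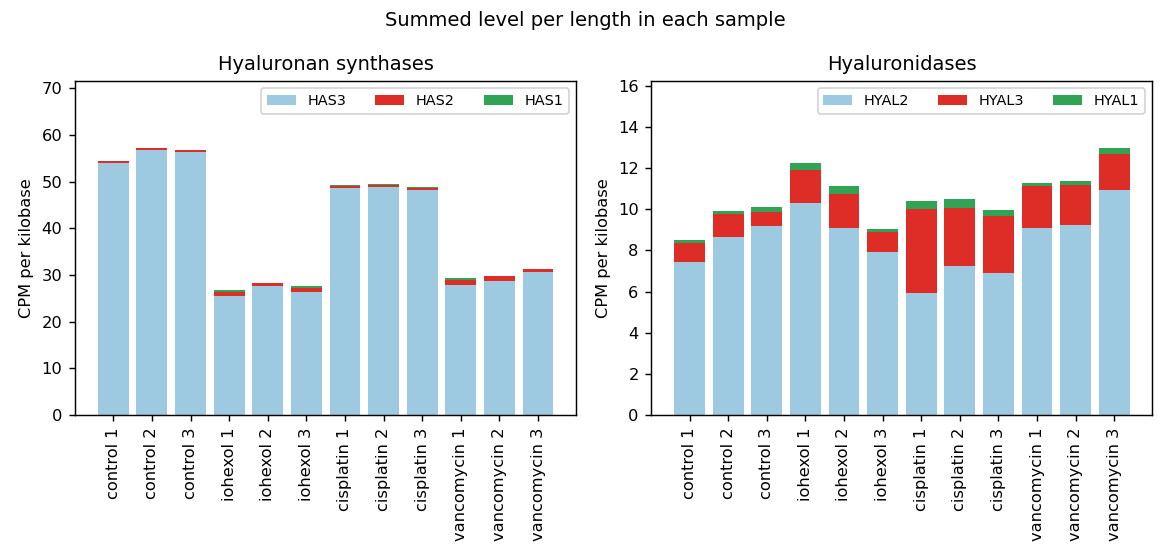
Stacked bars of CPM per kilobase (y axis from 0) in each of the 12 samples, for the 3 synthases (left) and the 3 hyaluronidases (right). HAS3 fills the synthase bars, whose height is 27.6 with iohexol against 56.1 in the control group on average, and the HYAL3 part of the hyaluronidase bars is largest with cisplatin, at 31.4% against 9.70% in the control group.

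CD44, the surface receptor that ties hyaluronan to the cytoskeleton, was one of the most abundant members. Its CPM were 457, 447 and 442 in the control samples, 240.1, 240.2 and 270.4 with iohexol, 338, 327 and 334 with cisplatin, and 432, 468 and 447 with vancomycin. The iohexol samples were the lowest, the cisplatin samples lay between them and the controls, and the vancomycin samples overlapped the controls. CD44 fell 1.75-fold with iohexol (log2 fold change -0.81, SE 0.08, adjusted p = 3.86e-05 by edgeR) and 1.33-fold with cisplatin (-0.41, SE 0.05, adjusted p = 3.72e-06). With vancomycin the value was -0.03 (interval -0.20 to 0.14, adjusted p = 0.763). Each pair of drugs differed, iohexol from cisplatin by -0.41 (adjusted p = 7.32e-05), iohexol from vancomycin by -0.83 (adjusted p = 6.34e-09) and cisplatin from vancomycin by -0.42 (adjusted p = 3.31e-05), although the last call was lost with library size only (-0.09, adjusted p = 0.265, range over the alternatives 1.13e-07 to 0.265). The counts are summed over the gene at chr11:35138870-35232402 and its 39 annotated transcripts, so standard and variant forms of CD44 are not separated.

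The hyaluronidase genes HYAL3, HYAL1 and HYAL2 lie in this order within 30076 bases of chromosome 3 (chr3:50292831-50322906, minus strand, GRCh38). HYAL2, a GPI-anchored enzyme of the cell surface, had most of the level, with CPM of 33.8, 39.3 and 41.6 in the control samples, 46.7, 41.2 and 36.1 with iohexol, 26.9, 32.8 and 31.4 with cisplatin, and 41.4, 42.0 and 49.7 with vancomycin. The cisplatin samples were below all control samples, the iohexol samples overlapped both the controls and the vancomycin samples, and so did the controls and the vancomycin samples. HYAL2 fell 1.25-fold with cisplatin (log2 fold change -0.32, SE 0.10, adjusted p = 0.00998 by edgeR), a call lost with library size only (-0.10, adjusted p = 0.387) and without cisplatin replicate 1 (-0.24, adjusted p = 0.0738; range over the alternatives 0.000199 to 0.387). With iohexol the value was 0.15 (interval -0.12 to 0.42, adjusted p = 0.433) and with vancomycin 0.18 (-0.05 to 0.41, adjusted p = 0.167). Cisplatin was below iohexol by 0.45 (adjusted p = 0.00291) and below vancomycin by 0.54 (adjusted p = 0.000402), the latter not with library size only (adjusted p = 0.123, range 0.000103 to 0.123).

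HYAL3, whose product has little known hyaluronidase activity by itself, showed the clearest increase of the family. Its counts were 26, 36 and 21 in the control samples, 48, 53 and 30 with iohexol, 139, 94 and 94 with cisplatin, and 65, 58 and 58 with vancomycin. In CPM the cisplatin samples (5.59 to 8.33) were above the vancomycin samples (3.58 to 4.07), which were above the iohexol samples (1.98 to 3.38), and these overlapped the controls (1.39 to 2.28). HYAL3 rose 3.55-fold with cisplatin (log2 fold change 1.83, SE 0.24, adjusted p = 3.81e-06 by edgeR) and 2.02-fold with vancomycin (1.02, SE 0.27, adjusted p = 0.00234). The iohexol value of 0.67 did not pass (interval 0.02 to 1.32, adjusted p = 0.134), but did without iohexol replicate 3 (0.88, adjusted p = 0.0317, range over the alternatives 0.0317 to 0.35). Cisplatin exceeded iohexol by 1.18 (adjusted p = 0.000273) and vancomycin by 0.77 (adjusted p = 0.00541), the latter not without cisplatin replicate 1 (0.56, adjusted p = 0.0557, range 0.000247 to 0.0557).

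HYAL1, the lysosomal hyaluronidase, had counts of 6, 8 and 12 in the control group and of 15, 19 and 7 under iohexol, whereas cisplatin gave 19, 23 and 15 and vancomycin 7, 9 and 14. The cisplatin samples did not overlap the controls, and all neighbouring groups in the order of means overlapped. With cisplatin the log2 fold change was 0.98 (SE 0.40, interval 0.13 to 1.83, adjusted p = 0.0453 by edgeR), and 9 of the 13 alternatives no longer called it, with adjusted p from 0.0159 to 0.17 over them. The iohexol value was 0.66 (adjusted p = 0.352). Per kilobase, the 3 hyaluronidases summed to 9.51 ± 0.871 CPM per kilobase (SD, n = 3) in the control group, 10.8 ± 1.62 with iohexol, 10.3 ± 0.299 with cisplatin and 11.9 ± 0.972 with vancomycin. Within this sum HYAL2 held 88.4% ± 2.03 in the control group and 65.1% ± 6.99 with cisplatin, and HYAL3 9.70% ± 2.53 and 31.4% ± 7.03.

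The cluster is dense, and neighbouring genes on the same strand share exons with the members. HYAL3 shares 12.2% of its exon bases with NAA80 and 2.12% with IFRD2, and HYAL2 shares 11.2% with TUSC2. Of 1907 short stretches sampled from HYAL2 transcripts, 415 (21.8%) also occur in transcripts of other genes, overlapping ones included. For HYAL3 the share was 6.01%. With cisplatin NAA80 changed by 0.18 (SE 0.17, adjusted p = 0.368 by edgeR), while IFRD2 rose by 0.58 (SE 0.07, adjusted p = 2.17e-06). NAA80 had 929 counts over all samples, IFRD2 9594 and HYAL3 722. TUSC2 rose by 0.28 with cisplatin (adjusted p = 0.032) and by 0.84 with vancomycin (adjusted p = 1.4e-06), where HYAL2 fell and did not pass, respectively. How reads in the shared bases were assigned is not given in the sources used here, and their part in the HYAL2 and HYAL3 values was not tested.

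**Figure D4:**
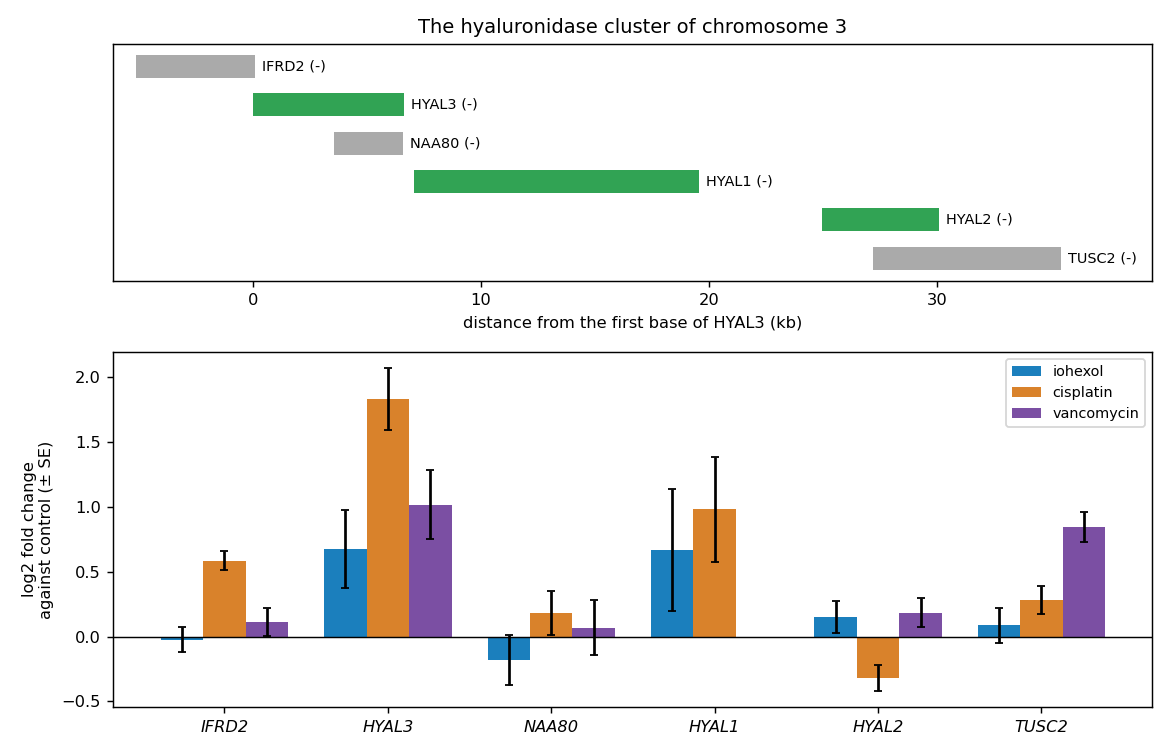
Upper panel, positions of the 3 hyaluronidase genes (green) and the neighbours that share exons with them (grey), in kilobases from the first base of HYAL3; lower panel, log2 fold change against control (bars, ± SE) of each gene with the 3 drugs. HYAL3 has the tallest cisplatin bar (1.83), NAA80 inside its span stays at 0.18, and HYAL1 has no vancomycin bar because it was not tested. HYAL2 is negative with cisplatin, -0.32 (-0.10 with library size only).

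Levels of different genes were compared per length. In the control group HAS3 was highest at 55.7 ± 1.49 CPM per kilobase (SD, n = 3), followed by CD44 at 44.9 ± 0.784, PTX3 at 18.4 ± 1.26, HYAL2 at 8.41 ± 0.884 and TNFAIP6 at 7.90 ± 1.07. HYAL3 (0.915), HAS2 (0.333), HYAL1 (0.185) and HAS1 (0.0669) were far lower. With vancomycin the TNFAIP6 level was 0.472 ± 0.122 CPM per kilobase, below HAS2 at 0.956 ± 0.304 and HYAL3 at 1.90 ± 0.122. The order depends on that division, since plain CPM put CD44 before HAS3 and HYAL2 before PTX3.

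Across all contrasts between drugs, 6 of 8 members tested were called between iohexol and cisplatin (54.0% of all genes tested), 2 of 8 between iohexol and vancomycin (56.6%) and 7 of 8 between cisplatin and vancomycin (64.7%). TNFAIP6 and CD44 were the 2 members that differed between iohexol and vancomycin, in opposite directions. Members whose 3 drug samples did not overlap the 3 control samples numbered 5 of 8 with iohexol, 8 of 8 with cisplatin and 4 of 7 with vancomycin, where 38.3%, 64.9% and 63.2% of all genes tested did not overlap. By the additional limit of a log2 fold change above 1 or below -1, 3 members were called with iohexol (TNFAIP6, HAS2, HAS3; 5.28% of all genes), 2 with cisplatin (TNFAIP6, HYAL3; 16.3%) and 3 with vancomycin (TNFAIP6, HAS2, HYAL3; 18.5%).

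The other genes of hyaluronan metabolism moved in both directions. The counts of called genes in the lists that follow stand beside 11.2% of all genes called higher and 9.77% lower with iohexol, 29.2% and 30.6% with cisplatin, and 29.0% and 28.8% with vancomycin. Of 7 enzymes that make the UDP-sugar precursors, 1 rose and 3 fell with iohexol, 3 rose and 2 fell with cisplatin, and 2 rose and 2 fell with vancomycin, with median log2 fold changes of -0.13, 0.03 and 0.06 against 0.01, 0.01 and -0.01 over all genes. GFPT2, an isoenzyme of the entry step of the hexosamine pathway, rose by 2.94 on the log2 scale with vancomycin (SE 0.14, mean CPM 4.84 to 37.9, adjusted p = 2.41e-14 by edgeR) and by 1.37 with cisplatin (adjusted p = 4.65e-07). With iohexol GFPT2 was called lower (-0.94, adjusted p = 0.0189). UGDH, which makes UDP-glucuronic acid, rose by 1.20 with vancomycin (adjusted p = 1.23e-10). It was called higher with iohexol (0.30, adjusted p = 0.0429) and lower with cisplatin (-0.42, adjusted p = 8.06e-05). UAP1, which makes UDP-N-acetylglucosamine, rose by 1.02 with cisplatin (adjusted p = 1.09e-09) and was called lower with iohexol (-0.69, adjusted p = 0.000328).

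Of 10 hyaluronan receptors and binding proteins other than CD44, 5 passed the filter in each comparison with control. With cisplatin STAB2 was among the 5 and TLR4 was not. With iohexol 1 rose and 1 fell (21.0% of all genes called), with cisplatin 2 fell (59.8% called), and with vancomycin 2 rose and 3 fell (57.9% called). TLR2, an innate immune receptor that also responds to hyaluronan fragments, fell by 1.33 with cisplatin (SE 0.16, adjusted p = 1.34e-06 by edgeR) and rose by 0.59 with iohexol (adjusted p = 0.00985) and by 0.75 with vancomycin (adjusted p = 3.7e-05). HMMR, a hyaluronan-binding protein that also acts at the mitotic spindle, fell by 1.34 with vancomycin (SE 0.12, adjusted p = 6.23e-10). TLR4 rose by 1.57 with vancomycin (SE 0.45, adjusted p = 0.00458) from 20 counts in the control group, and it too is a hub gene that the study chose on these libraries. With iohexol the TLR4 value of 1.10 did not pass (adjusted p = 0.0836), and with cisplatin TLR4 was not tested. Among 8 proteoglycans and link proteins 2 passed the filter in the comparisons with control. VCAN, the large matrix proteoglycan versican, fell by 1.64 with cisplatin (SE 0.06, adjusted p = 2.3e-13). The link protein gene HAPLN3 rose by 1.92 with vancomycin (SE 0.12, adjusted p = 3.76e-12). HAPLN3 was also called higher with iohexol (0.64, adjusted p = 0.0195) and cisplatin (0.52, adjusted p = 0.00159), and VCAN lower with vancomycin (-0.67, adjusted p = 8.49e-06).

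Inter-alpha-inhibitor is the donor of the heavy chains that TNFAIP6 transfers. Of a list of AMBP and the 5 genes ITIH1 to ITIH5, not all of which encode chains of that complex, 1 was tested. AMBP, which encodes the bikunin chain and alpha-1-microglobulin, rose by 3.00 on the log2 scale with vancomycin (SE 0.16, mean CPM 3.28 to 26.9, adjusted p = 1.89e-13 by edgeR), and ITIH1 to ITIH5 did not pass the filter. Of 8 other breakdown genes 6 were tested, and with vancomycin 4 rose and 0 fell (29.0% and 28.8% of all genes). With iohexol 0 rose and 1 fell (11.2% and 9.77% of all genes), and with cisplatin 2 rose and 1 fell (29.2% and 30.6%). IDS in that list acts on dermatan and heparan sulfate and not on hyaluronan.

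All 8 cytoskeletal partners, sheddases and ligands of CD44 were tested. With cisplatin 7 fell and 0 rose (median -0.71, against 0.01 over all genes), where 30.6% of all genes fell and 29.2% rose. With iohexol 1 rose and 1 fell, where 21.0% of all genes were called, and with vancomycin 4 rose and 4 fell, where 57.9% were called. ADAM10, a protease that sheds CD44, fell by 1.20 with cisplatin (adjusted p = 1.6e-10 by edgeR). SPP1, the CD44 ligand osteopontin, fell by 1.63 with cisplatin (SE 0.06, adjusted p = 4.29e-13) and rose by 1.59 with vancomycin (SE 0.09, adjusted p = 3.45e-13). MMP14, another sheddase, rose by 1.92 with vancomycin (adjusted p = 4.63e-14), and NF2, whose product merlin binds the CD44 tail, fell by 1.52 with the same drug (adjusted p = 6.08e-13). MMP14 was called lower with iohexol (-0.80, adjusted p = 0.00145) and cisplatin (-0.78, adjusted p = 1.16e-07).

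Among 8 pentraxins and PTX3 partners 4 were tested. NPTX1, a neuronal pentraxin, rose by 2.71 with cisplatin (SE 0.22, adjusted p = 1.21e-08 by edgeR), and the receptor gene NPTXR rose by 1.02 with vancomycin (adjusted p = 1.76e-08). NPTXR was called lower with cisplatin (-0.97, adjusted p = 3.2e-07). In these 4 genes 1 fell with iohexol, 1 rose and 2 fell with cisplatin, and 2 rose and 1 fell with vancomycin, beside 21.0%, 59.8% and 57.9% of all genes called.

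TNFAIP6 is a cytokine-inducible gene, so 17 other genes that TNF or IL-1 induce were counted. With vancomycin, where TNFAIP6 was lowest, 10 of 16 tested rose and 4 fell (median 0.41, against -0.01 over all genes), where 29.0% of all genes rose and 28.8% fell. With iohexol 4 of 17 rose and 4 fell (median 0.12, against 0.01), where 11.2% and 9.77% of all genes did, and with cisplatin 3 of 16 rose and 7 fell (median -0.12, against 0.01), where 29.2% and 30.6% did. SOD2, the mitochondrial superoxide dismutase, rose by 2.48 with vancomycin (SE 0.09, adjusted p = 2.77e-16 by edgeR) and by 1.08 with iohexol (adjusted p = 3.14e-06). ICAM1, an adhesion molecule, rose by 1.30 with vancomycin (adjusted p = 8.38e-11). The chemokine gene CCL20 fell by 3.05 with cisplatin (SE 0.12, adjusted p = 5.35e-13) and fell by 1.87 with iohexol (adjusted p = 7.27e-07). With vancomycin CCL20 was called lower too (-0.71, adjusted p = 9.05e-05). The cytokine gene LIF fell by 1.01 with iohexol (adjusted p = 0.000116) and was also called lower with cisplatin (-0.83) and vancomycin (-0.42). TNFAIP8 was likewise called lower with iohexol (-0.50), cisplatin (-0.43) and vancomycin (-0.52). Other genes of the list moved differently. IL6 was called higher with iohexol (0.89) and vancomycin (0.89) and lower with cisplatin (-0.54). TNFAIP3 was called higher with cisplatin (0.92) and vancomycin (0.54) and was not called with iohexol (0.12). CCL2 fell by 1.46 with cisplatin (adjusted p = 0.0203) from 55 counts in the control group.

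**Figure D5:**
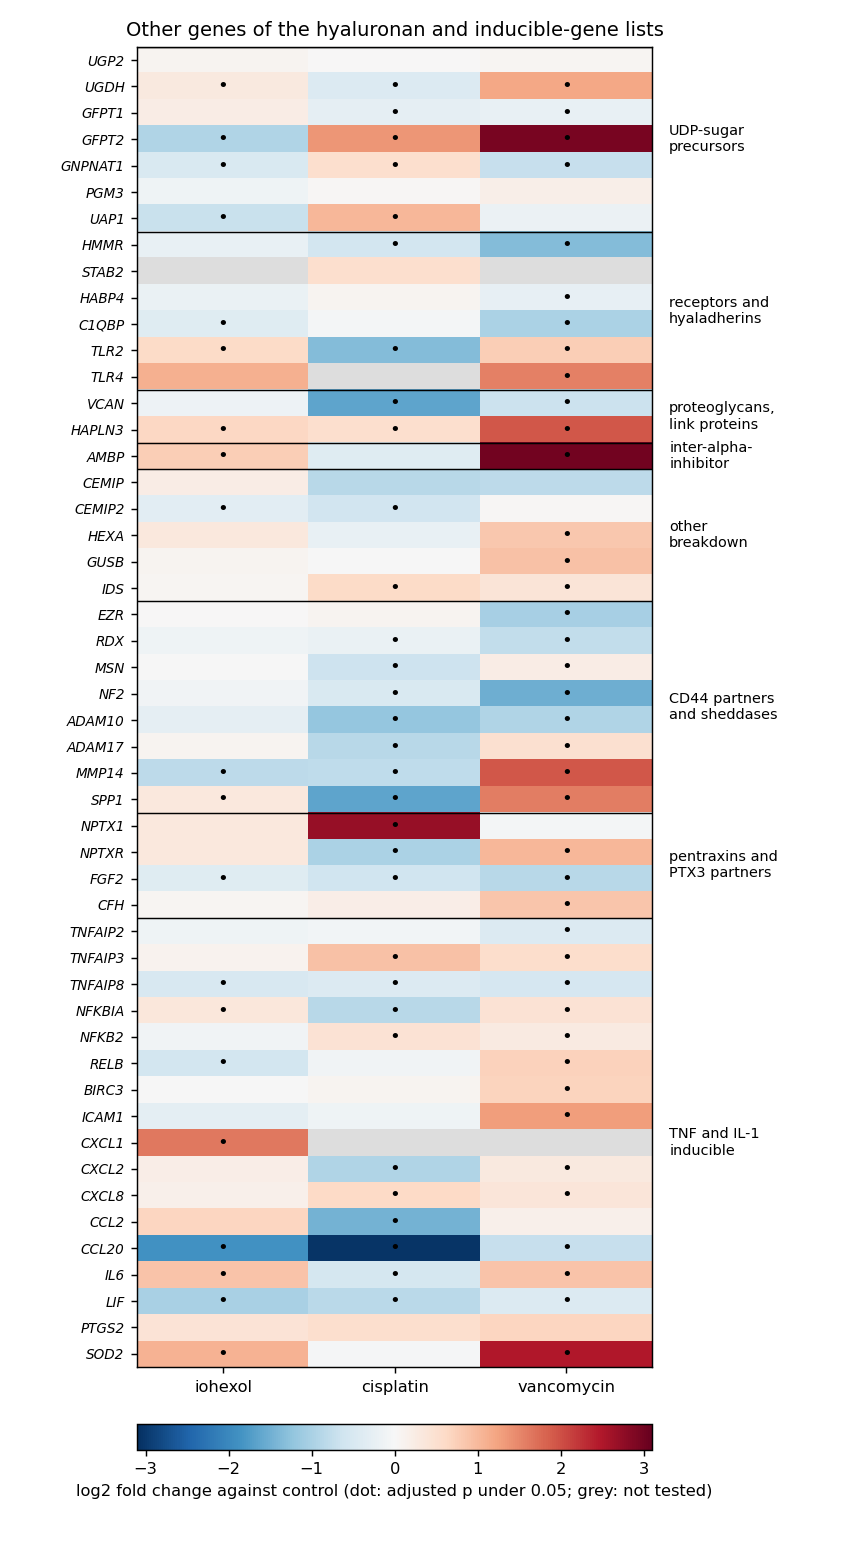
Log2 fold change against control (colour, red higher and blue lower) of the other genes of the 8 lists that were tested in at least 1 comparison and are reported here, in rows by list, with 1 column for each drug; a dot marks an adjusted p under 0.05 and grey a gene not tested. GFPT2 (2.94) and AMBP (3.00) are darkest red with vancomycin and CCL20 (-3.05) is darkest blue with cisplatin.

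As a description, the pattern of each member with a mean of at least 1 CPM was set against 14698 genes by Pearson's r of log2 CPM over the 12 samples, which share libraries and the 4 groups. The genes most like TNFAIP6 were CLDN11 (r = 0.993), TNFRSF21 (0.983) and KDELC1 (0.979), and by Spearman's rho CLDN11 remained the nearest (0.972) while the others ranked 23 and 29. For HAS2 they were AP1AR (0.964), TMEM38B (0.957) and RRAGD (0.927), and for HAS3 NUP62 (0.974), SLN (0.965) and AHCY (0.962). CD44 was nearest to RUNX2 (0.987), INHBA (0.983) and ARNTL2 (0.983). By rho the order was different for most: RUNX2 ranked 263 and INHBA and ARNTL2 61 for CD44, and NUP62 ranked 52, SLN 19 and AHCY 82 for HAS3. For HYAL2 the nearest were LCNL1 (0.978), FURIN (0.950) and TRPT1 (0.943), for HYAL3 FLJ20021 (0.962), THAP7 (0.952) and ZNF324 (0.947), and for PTX3 RGCC (0.950), LINC01186 (0.943) and FOXJ1 (0.941). The nearest gene by rho was TMEM38B for HAS2, FLJ20021 for HYAL3 and FOXJ1 for PTX3, whereas RGCC ranked 67 for PTX3, LCNL1 ranked 12 for HYAL2 and THAP7 ranked 59 for HYAL3. Among the members themselves HAS2 and HAS3 ran in opposite directions (r = -0.926), TNFAIP6 ran with HAS3 (0.778) and against HAS2 (-0.814), and TNFAIP6 and PTX3 were at 0.233. CD44 and TNFAIP6 were at -0.003.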

How the data were processed

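Counts of reads per gene were deposited by the authors as whole numbers, without normalization, for 58735 genes in 12 libraries (poly(A) selection, NEBNext Ultra RNA kit). The submitters' processing notes name CASAVA 1.8, fastp, HISAT2 2.0.5, featureCounts 1.5.0-p3 and DESeq2 1.20.0, without roles. The strand setting and the annotation are not given in the sources used here. All 58735 gene identifiers occur in GENCODE 29 (GRCh38), 58724 with the same start and end, so that annotation was used for exons and overlaps.

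Total counts per sample were 14057282 to 18177109. Library sizes and columns were matched to samples by the labels, with 0 columns unmatched. The deposited counts were fitted by edgeR 4.0.16 (TMM, glmQLFit, glmQLFTest; R 4.3.3) over genes passing filterByExpr (minimum count 10, minimum total 15), in a separate fit of 3 against 3 samples for each drug and in 1 fit of 12 samples for contrasts between drugs, with Benjamini-Hochberg adjustment over all genes tested. The standard error is the log2 fold change divided by the square root of F. CPM use the total times the TMM factor, log2 CPM a prior count of 2, and CPM per kilobase the gene length of the table. DESeq2 1.42.0 and voom of limma 3.58.1 served as alternatives, beside other scalings, filters, fits, a replicate block and omission of each sample. Promoters are from RefSeq. SOD2 has 2 records of that name, and the record with more counts was used. Of these steps only the edgeR fits were tested on simulated counts, which were drawn with 1 fixed dispersion for all genes.

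The members and gene lists were chosen with earlier results of these data known. Named are all 9 members, and of each list the tested genes that passed the adjusted p threshold of 0.05 and changed by more than 1 on the log2 scale (at most 3 by p in each list and comparison), genes that share exons with a member, and the 3 genes most like each member with a mean of at least 1 CPM. Some genes that this rule covers are not reported by name. TNFAIP8, IL6 and TNFAIP3 are also named, though none of them changed by more than 1 on the log2 scale against control. For the list genes named, smaller changes with the other drugs are given only in part.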

Additional observations from a re-analysis of the deposited data

How the results depend on the processing

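Of 577 alternative values for single members, 546 kept their direction and their side of the threshold, 6 changed sign, 5 passed and 20 lost the threshold. The sign changes were in small values. With library size only, HAS3 with cisplatin became 0.0353, and between iohexol and vancomycin HAS2 became 0.0206, HAS3 0.0812 and HYAL2 0.114. CD44 with vancomycin became 0.0117 in the fit of all 12 samples, and PTX3 with vancomycin 0.027 without vancomycin replicate 3. The number of members called with cisplatin was 7, and 2 when a log2 fold change over 1 in size was also required. Between iohexol and vancomycin 2 were called, and 1 when every sample had to have 10 counts, since TNFAIP6 then left the table. On leaving out each sample in turn, the number called was 4 to 5 with iohexol, 5 to 7 with cisplatin, 4 to 4 with vancomycin, 5 to 6 between iohexol and cisplatin, 2 to 3 between iohexol and vancomycin and 6 to 7 between cisplatin and vancomycin. Scaling by library size only moved the median of all genes by 0.07 with iohexol, 0.22 with cisplatin and -0.08 with vancomycin, and by -0.13, 0.21 and 0.33 between iohexol and cisplatin, iohexol and vancomycin, and cisplatin and vancomycin. It raised the share of higher genes among all genes called from 53.4% to 67.5% with iohexol, from 48.9% to 68.1% with cisplatin, from 48.7% to 65.6% between iohexol and vancomycin and from 46.4% to 66.4% between cisplatin and vancomycin, and lowered it from 50.2% to 43.6% with vancomycin and from 51.8% to 41.2% between iohexol and cisplatin.

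Replicate numbers did not pair the samples: the mean correlation of deviations was -0.02 over 18 same-numbered pairs and 0.01 over the other 36. With the replicate number as a block 4 members were called with iohexol, 6 with cisplatin (HYAL1 at adjusted p = 0.063) and 4 with vancomycin, and 6, 2 and 7 between the drugs. The genes called over the whole iohexol table fell from 3283 to 2096 with the block, and were 1849 to 4544 on leaving out a sample, the most without iohexol replicate 3. Depth limits HAS1 and HYAL1, whose counts of 0 to 23 per sample leave wide intervals.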
